A study of Homo sapiens with 2 samples.

Results

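The piRNA read-count list of a small RNA library from U87MG cells was searched for entries that share 20 or more bases in a row with the sequence listed for piR-60565, the entry with the most reads. Of 10487 entries, 7 met this rule, piR-60565 included, and all 7 were described. The members were chosen by sequence alone, but the entry they were compared with was selected on its read count. The read counts of the 7 entries are therefore a description of this library and were given no test. U87MG is an established human glioblastoma cell line, grown untreated in MEM with 10% FBS and 1% antibiotics. The study holds 1 small RNA library and 1 mRNA library of these cells, with no replicate and no control cell, so no value could be set against a spread between samples. The small RNA list of piRNA entries held 27299683 reads and the list of mature miRNAs 11785001 reads.

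piRNAs are small RNAs of the germ line that guide PIWI proteins to transposon transcripts, and they mostly begin with U. Databases of piRNA sequences also hold fragments of other cellular RNAs, among them tRNAs. Transfer RNAs for glutamate carry that amino acid to the ribosome. When a tRNA is cut in or near its anticodon loop, for example by the ribonuclease angiogenin under stress, its 5′ portion can persist as a small RNA of its own, and 5′ fragments of tRNA-Glu have been described among the abundant ones in human cells and serum. In breast cancer cells, fragments of tRNA-Glu and of a few other tRNAs are known to bind the RNA-binding protein YBX1.

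The label of the group, tRNA-Glu-CTC, rests on general knowledge of this tRNA, because no tRNA sequence was in the tables used here. From that knowledge, the mature tRNA begins at the second base of piR-60565, so the first base of piR-60565 stands in front of it. The anticodon lies beyond the last base of every member. The members therefore cannot tell a tRNA-Glu with anticodon CTC from one with anticodon TTC where the 5′ portions are alike. The RefSeq gene table of GRCh38.p14 names 8 tRNA genes with anticodon CTC for glutamate (TRE-CTC) and 7 with anticodon TTC (TRE-TTC), beside 11 and 6 pseudogenes. It was used for names only.

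Positions below are counted from 1 at the first base of piR-60565, which is 31 bases long. All 7 members hold the same 16 bases in a row, from position 11 to 26. The rule that chose the members fixes much of this stretch in advance. A base of a member that differs from piR-60565 at the aligned position is called a substitution.

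The 7 members held 14565339 reads, which were 53.4% of all piRNA reads (95% interval 53.3 to 53.4%, Clopper-Pearson), or 1.24 reads for each read of the whole miRNA list. Nearly all of them lay in 2 entries. piR-60565 had 13089145 reads, 89.9% of the members' reads (89.8 to 89.9%), and piR-43771 had 1360650 reads, 9.34% (9.33 to 9.36%). The remaining 5 members had 115544 reads together, 0.793% (0.789 to 0.798%). The reads carry no molecular identifiers and may include copies of 1 molecule, so all intervals here cover counting error only.

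Every member stood high in the list all the same. piR-33065 had 90066 reads, piR-33064 12134, piR-33123 11307, piR-43772 1518 and piR-43770 519. By reads the 7 members took ranks 1, 3, 19, 53, 55, 128 and 216 of the 10487 entries. The median entry of the whole list had 2 reads, and the median member had 12134. All 7 members had at least 10 reads, against 12.7% of all entries, and 6 had at least 1000 reads, against 1.54% of all entries. The rank of piR-60565 was fixed by its selection. Whether the other members drew reads from its RNA cannot be told, because the rules for mismatches and multiple matches are not stated. For scale within the same library, miR-21-5p, the miRNA with the most reads, was exceeded by piR-60565 with 1.89 reads for each of its own, while piR-43771 had 0.196 reads for each miR-21-5p read.

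The files list entries with their sequences and not the reads, so start and length are those of the entry to which a read was assigned. The members began at 3 neighbouring positions. piR-60565 alone started at position 1. At position 2 started 5 members, piR-43771, piR-33065, piR-33064, piR-43772 and piR-43770, with 1464887 reads or 10.1% of the members' reads (10.0 to 10.1%). piR-33123 started at position 3 with 0.0776% (0.0762 to 0.0791%). Starts at positions 1 and 2 thus held 99.92% of the reads.

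The ends were spread over more positions than the starts but carried reads just as unevenly. At position 31 ended 3 members, piR-60565, piR-33065 and piR-33064, with 90.6% of the reads (90.6 to 90.6%). piR-43771 ended 1 base later, at position 32, with the 9.34% given above. piR-43772 ended at position 33 with 0.0104%, piR-33123 at position 30 with 0.0776% and piR-43770 at position 27 with 0.00356%. Positions 3 to 27 are covered by all 7 entries, an overlap that the 20-base rule largely fixes.

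Member lengths ran from 26 to 32 bases, and 1 length class carried the group. The 2 members of 31 bases, piR-60565 and piR-43771, held 99.2% of the members' reads (99.2 to 99.2%). The 2 of 30 bases held 0.702%, and the single members of 28, 32 and 26 bases held 0.0776%, 0.0104% and 0.00356%. Weighted by reads, the mean length was 30.99 bases with an SD over reads of 0.122, against 30.4 bases for the reads of all other entries. Of the reads in all 1418 entries of 31 bases, these 2 members held 65.0% (65.0 to 65.0%). piR-60565, selected on its read count, alone had 13089145 of these 22235010 reads, so the share largely restates that selection. The 2 members of 30 bases held 4.61% (4.58 to 4.64%) of the reads in the 2433 entries of that length.

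Some pairs of members that are close in sequence differed widely in reads. piR-60565 and piR-43771 share 30 bases, from position 2 to 31. They differ in 1 base before this stretch, held by piR-60565, and in 1 base after it, held by piR-43771. piR-60565 had 9.62 reads for each read of piR-43771 (9.60 to 9.64, exact binomial interval of the ratio, counting error only). The bare stretch of 30 bases, with neither end base, had no row in the list, which holds only entries with at least 1 read. A missing row cannot tell a sequence without reads from one that was never among the entries counted. Whether reads of the bare stretch were assigned to piR-60565 or piR-43771 is not known either.

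A single pair of members was nested. piR-43771 lies wholly inside piR-43772, which holds 1 further base at position 33, and piR-43771 had 896 reads for each read of piR-43772 (852 to 943). Any read that matches piR-43772 over its full length also matches piR-43771 over its full length. How such reads were shared between entries is not stated in the labels or file headers.

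The members with a substitution at position 2 were compared next. piR-33065 carries a substitution at position 2, its own first base, has the same end as piR-60565 and lacks its first base. piR-60565 had 145 reads for each read of piR-33065 (144 to 146), and piR-43771, which keeps the base of piR-60565 at position 2 but ends 1 base later, had 15.1 (15.01 to 15.21). The 2 members with this substitution, piR-33065 and piR-33064, made up 0.702% of the reads that cover position 2 (0.698 to 0.707%). Of the 5 members that start at position 2, they had fewer reads than piR-43771 but more than piR-43772 and piR-43770, which hold the base of piR-60565 at that position.

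Across the 31 positions of piR-60565, a substitution was listed by any member at 3 positions, namely 2, 10 and 27. The other 28 were alike in every member that covers them. Members were chosen for a long run identical to piR-60565, so likeness at the middle positions was fixed by that rule and is no finding. At position 10 both other letters came from members with near-equal counts. piR-33064, with substitutions at positions 2 and 10, held 0.0833% of the reads over this position (0.0818 to 0.0848%). piR-33123, with a different substitution at position 10, held 0.0776% (0.0762 to 0.0791%), so piR-33064 had 1.07 reads for each read of piR-33123 (1.05 to 1.10). The pair piR-33065 and piR-33064 differ at position 10 alone, with 7.42 reads in piR-33065 for each read in piR-33064 (7.28 to 7.57).

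At position 27 only piR-43770, the shortest and least-read member, differed. Its substitution lies in its own last base. It had 519 reads, 0.00356% of the reads over this position (0.00326 to 0.00388%). Altogether 4 members listed a substitution, and they held 114026 reads or 0.783% of the members' reads (0.778 to 0.787%). Whether reads with a mismatch were counted for an entry is not given in the sources used here, so a count on such an entry need not be a count of RNA molecules that carry that letter.

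The rule's threshold fell between 2 entries that carry the same substitution. piR-33123, with a longest shared run of exactly 20 bases and 11307 reads, was the member nearest to it. piR-43768 carries the same substitution at position 10, shares 26 bases in a row with piR-33123, starts 1 base earlier and ends at position 28. Its longest run shared with piR-60565 is 18 bases, so it stayed outside, with 2192 reads. piR-33123 had 5.16 reads for each of its reads (4.93 to 5.40). No other entry had a longest shared run of 17 to 19 bases.

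Beyond piR-43768 the list held no gradual series of related sequences. In the best window of 20 aligned bases without gaps, piR-43768 had 1 mismatch to piR-60565, no entry outside the rule had 2, and 4 entries had 3. These 4 were piR-31143 with 137531 reads, piR-31142 with 12038, piR-35281 with 978 and piR-35283 with 350, and their longest exact run shared with piR-60565 was 7 bases each. The 16 bases common to all members were searched on both strands. They were found in 8 of the 10487 piRNA entries (0.0763%), the 7 members and piR-43768, always on the listed strand. The 7 members hold this stretch by construction, so piR-43768 was the only entry that the search could add and did. The stretch overlaps the region where tRNA genes hold the inner promoter element known as the A box, which is transcribed with the tRNA.

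The miRNA list held no counterpart of these entries. None of its 1224 mature miRNAs shared 14 or more bases in a row with a member on either strand. The longest shared run was 9 bases on the listed strand and 8 on the reverse strand. Among 4107 RefSeq mature and hairpin miRNA sequences the longest run shared with piR-60565 on either strand was 11 bases.

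Most reads on entries with a first T lay in the members, which largely restates that piR-60565, selected on its read count, begins with T. A first U, written T in the files, is the mark of primary piRNAs, and an A at the tenth base is that of secondary ones. Of the members, 4 (57.1%) begin with T, namely piR-60565, piR-43771, piR-43772 and piR-43770, and 3 begin with C. Entries beginning with T held 99.2% of the members' reads (99.2 to 99.2%) and 59.4% of all piRNA reads. Among the 10480 entries that are not members, 78.3% begin with T, a larger share by entry than in the members. These held 13.9% of the reads (13.92 to 13.96%). Shares by reads rest on few entries here too, as 1 non-member alone had 5357269 of the 12734344 reads. No member has an A at the tenth base of its own sequence, whereas 32.7% of the other entries do, with 12.6% of their reads. GC content of the members ran from 50% in piR-43770 to 60% in piR-33065 and piR-33064, with a median of 54.8%, against a median of 50% over all entries.

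The same rule was applied to 3 other abundant tRNA-derived entries to show how the glutamate group was built, and their tRNA names rest on general knowledge too. The entries sharing 20 bases with piR-35982 (tRNA-Gly-GCC) numbered 10 and held 6186149 reads. Those sharing 20 bases with piR-35412 (tRNA-Lys-CTT) numbered 10 and held 719954 reads. Those sharing 20 bases with piR-60576 (tRNA-Val-CAC) numbered 7 and held 718157 reads. None of these entries was a member of the glutamate group. At least 10 reads were held by 9 of the 10 glycine entries, all 10 lysine entries and all 7 valine entries. Reaching 10 reads was thus not particular to the glutamate group.

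In each of the 4 groups 1 entry held most of the reads, though not to the same degree. All 4 leading entries were chosen as abundant ones, so a large share in the leading entry is largely fixed by that choice. The 89.9% of piR-60565 stood between 86.6% for piR-35982 (86.6 to 86.6%) and 98.1% for piR-60576 (98.1 to 98.2%), with 60.9% for piR-35412 (60.7 to 61.0%). The glutamate group began at 3 neighbouring positions and the valine group at 2. The glycine group began at 7 positions, from 5 bases before to 8 bases after its leading entry, and the lysine group at 3. In the glutamate group piR-60565 was alone at its start. In the lysine group 7 members began with piR-35412 and held 95.8% of the reads, in the glycine group 3 began with piR-35982 and held 86.6%, and in the valine group 2 began with piR-60576 and held 98.5%. Read-weighted mean lengths were 30.99 bases for glutamate, 30.98 for glycine, 31.2 for lysine and 30.01 for valine. With 1 library these differences have no replicate check.

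Genes that make, mature, modify or cut tRNA, or that bind its fragments, were read from the mRNA library as FPKM (fragments scaled by gene length and library size). Of 23 such genes, 22 were at an FPKM of 1 or more, with a median of 10.1. Over all 21445 listed genes 64.6% reached that level, with a median of 2.96, and over protein-coding genes 77.5% did, with a median of 7.82. The lowest listed FPKM was 3.04e-06, so genes without any signal are not in these shares. The charging enzymes of tRNA-Glu were EPRS1, of the cytosol, at 41.2 FPKM and EARS2, of mitochondria, at 10.1. ANG, the gene of angiogenin, was at 3.14 FPKM and RNH1, whose protein inhibits it, at 118. YBX1 was at 236 FPKM, the highest of the list, and RNASE1, a secreted ribonuclease, at 0.269, the lowest.

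Enzymes that trim tRNA ends and those that modify bases were listed over a wide range. ELAC2, which cuts the 3′ trailer, was at 23.0 FPKM and its shorter relative ELAC1 at 1.46, and RPP30 and POP1, subunits of the RNase P that removes the 5′ leader, were at 10.8 and 7.66. SSB, the La protein that holds the ends of new polymerase III transcripts, was at 35.6, POLR3A, the largest subunit of that polymerase, at 7.72, and MAF1, its repressor, at 31.6. The methyltransferases of cytosine in tRNA, NSUN2 and TRDMT1, were at 32.6 and 2.78, and the pseudouridine synthases PUS1 and PUS7 at 9.12 and 8.10. DICER1 was at 19.3 FPKM and SLFN11, a tRNA-cleaving protein, at 9.96. These are levels in a single library of mRNA, and no relation to the fragment reads was tested.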

How the data were processed

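The small RNA library was read as single-end reads of 50 bases, per the labels' protocols, from RNA with an integrity number of 8.7. The deposited small RNA values are raw read counts per piRNA entry and per mature miRNA, per the file headers. The deposited mRNA values are FPKM per gene, per the file headers. cutadapt, an adapter trimmer, and the builds hg19 and GRCh37 are named in the submitters' processing notes. The aligner, the counter, the mismatches allowed and the rule for reads matching several entries are not stated in the labels, headers or notes used here. Each listed entry had at least 1 read.

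Listed sequences were compared without gaps in Python 3.11.15 (pandas 2.3.3, SciPy 1.17.1). An N, present in 115 piRNA entries, matched nothing. Members shared 20 bases in a row with piR-60565 on the listed strand. Shares have exact Clopper-Pearson 95% intervals. The search was tested on simulated sequences, where 200 of 200 planted runs were recovered. Gene identifiers were matched through the gene name table, 23 of 23. The members, the gene list and the settings were chosen with earlier results of these data known. All members are named; their sequences and a few values are not reported here. Alternatives changed the shared run, the mismatch rule, the read minimum, the denominators, the strand and the FPKM threshold.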

Additional observations from a re-analysis of the deposited data

How the results depend on the processing

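A shared run of 16 or 18 bases, or 20 aligned bases with at most 1 mismatch, added piR-43768 alone, and collapsing contained entries left 6 members. A run of 24 bases left 5 members with 14541898 reads, 53.27% of piRNA reads, with piR-60565 and its start at 90.01% of them. Over piRNA and miRNA reads together the members held 37.3%, and without piR-60565 in members and total 10.4%. The share starting at position 1 became 99.92% when starts within 1 base counted, and 0% without piR-60565, which is the only entry there. These 8 of 44 alternative values moved beyond counting error, and the other 36 stayed within it, or within 1.5 times for counts and 1 SD for the mean length. Many of the 36 could not move or repeat each other, so the tally is no measure of robustness. The minimum of 10 reads removed no member, as the least-read had 519, and collapsing keeps the summed reads by construction. Runs of 16 and 18 bases and the mismatch rule gave the same 8 entries. Among the genes, 18 of 23 reached an FPKM of 5 and 22 an FPKM of 0.5. No paired analysis was possible because each library is a single sample. The list holds only entries with at least 1 read, so an entry that meets the rule but drew no read at this depth would not be counted. Reads of overlapping entries cannot be told apart.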
